A study of Mus musculus with 6 samples.

Results

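Immunoglobulin and B cell genes were followed in RNA from cells sorted on CD11c, and labelled as dendritic cells, out of mouse melanomas. The set held 9 genes, chosen by symbol from earlier results on these libraries in which Ighm stood lower beside Gli2CA tumours. They were 9 of the 54532 gene IDs in the deposited table, and each symbol matched 1 ID. The genes were Ighm, Ighd, Igkc and Jchain, which encode antibody chains, and Mzb1, Cd79a, Cd79b, Ms4a1 and Ebf1, which belong to the B lineage. Because the choice used the Gli2CA and NTC contrast, values of these 9 genes in that contrast are given as a description, with no test.

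All tumours grew in C57BL/6 mice from a BRAFV600E melanoma line kept under puromycin, and were harvested on day 28. Gli2CA tumours (3 libraries) came from cells with an active mutant of Gli2, a transcription factor of the Hedgehog pathway. NTC tumours (3 libraries) came from cells with a non-targeting control. The mice's age is not stated, and the labels do not say whether each library came from its own mouse, so any p-value here covers the spread among these libraries, which may be technical.

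An antibody heavy chain is made from a constant gene joined to V, D and J segments, which B cells bring together by recombination. Ighm encodes the constant part of IgM and Ighd that of IgD, while Igkc is the constant gene of the kappa light chain. The locus of Ighm can also be transcribed without any V segment, giving sterile or germline RNA, which is known from T cells as well as from early B cells. On the B cell surface, CD79A and CD79B carry the signal of the antigen receptor. MS4A1 is the surface protein CD20, and EBF1 is the transcription factor that commits cells to the B lineage. J chain links IgM and IgA into polymers, and MZB1 is a chaperone of antibody-secreting cells.

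Sequences are shown for the segments that separate the libraries below, chosen after their values were seen. They are reference sequences from GENCODE M21 on GRCm38, not reads of these libraries. Ighj1 is a heavy chain joining segment at chr12:113429781-113429833 (minus strand), and it was the only V, D or J segment with reads in all 6 libraries. Ighv5-4 (290 bases at the 3′ end of its coding exon, chr12:113597446-113597735, minus strand) and Igkv12-44 (the same stretch, chr6:69814631-69814920, minus strand) held most of the V segment reads of 1 library. Ighv5-6 is the measured heavy V segment most like Ighv5-4, with 13 differences over the 290 bases (95.5% identity). The capitals mark the bases at which Ighv5-4 and Ighv5-6 differ, and, in Igkv12-44, those at which its own closest relative Igkv12-41 differs (13 differences, 95.5% identity).
Ighj1: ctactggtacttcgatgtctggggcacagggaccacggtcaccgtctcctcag
Ighv5-4: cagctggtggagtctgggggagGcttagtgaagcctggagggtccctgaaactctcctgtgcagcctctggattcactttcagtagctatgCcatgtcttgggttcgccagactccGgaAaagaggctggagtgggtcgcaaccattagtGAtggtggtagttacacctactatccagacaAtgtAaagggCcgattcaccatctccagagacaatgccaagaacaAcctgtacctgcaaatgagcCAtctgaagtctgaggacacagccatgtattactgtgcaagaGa
Ighv5-6: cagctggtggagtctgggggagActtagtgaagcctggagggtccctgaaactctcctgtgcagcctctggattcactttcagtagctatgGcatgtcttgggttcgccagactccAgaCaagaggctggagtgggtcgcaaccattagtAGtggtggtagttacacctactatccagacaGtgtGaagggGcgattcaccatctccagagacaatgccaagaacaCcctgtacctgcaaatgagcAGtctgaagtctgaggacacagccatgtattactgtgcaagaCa
Igkv12-44: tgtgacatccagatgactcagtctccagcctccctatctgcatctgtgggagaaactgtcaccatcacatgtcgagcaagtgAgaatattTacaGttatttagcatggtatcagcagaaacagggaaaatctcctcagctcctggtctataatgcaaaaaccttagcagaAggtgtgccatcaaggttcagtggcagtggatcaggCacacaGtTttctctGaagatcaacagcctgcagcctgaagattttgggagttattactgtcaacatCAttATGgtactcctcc

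Levels were in FPKM, a measure relative to transcript length and to the fragments in the library, from which whole reads could be recovered. The libraries held about 18770000 to 29130000 fragments. NTC 1 and NTC 3 had the fewest genes above 0, at 11374 and 11871, against 14253 to 15496 in the other libraries. Genes that mark conventional dendritic cells were present in every library: all 10 of that list stood at 1 FPKM or more in all 6. T cell genes were present too, with 8 of 10 at 1 FPKM or more in all 6 libraries. Among 7 melanocytic genes, Mlana, Dct, Tyrp1 and Tyr were listed at 0 throughout, while Sox10 was at 0 in NTC and at 12.1 to 19.8 FPKM in Gli2CA.

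Ighm was abundant in every library and stood higher in NTC. It lies at chromosome 12, 113418558 to 113422730 (GRCm38, minus strand), as a constant region gene. Its level was 678.6, 451.2 and 673.7 FPKM in NTC 1, 2 and 3 and 106.5, 189.9 and 131.9 FPKM in Gli2CA 1, 2 and 3. Every NTC library lay above every Gli2CA library, and the lowest NTC value belonged to NTC 2. The means were 601.2 ± 129.9 FPKM in NTC and 142.8 ± 42.7 in Gli2CA (SD, n = 3 each), a ratio of 4.21. On the log2(FPKM + 1) scale the difference, Gli2CA minus NTC, was -2.08 ± 0.29 (SE). Among the 12266 genes tested, those whose mean over the 6 libraries reached 1 FPKM, 116 had a lower difference. The values rest on 20064 to 24900 reads in the NTC libraries and 4953 to 8035 in the Gli2CA libraries, so counting error was small beside the spread between libraries. Ighm ranked 169, 243 and 170 among all genes by FPKM in NTC 1, 2 and 3, and 1343, 707 and 1094 in Gli2CA 1, 2 and 3.

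In bulk RNA, fewer cells of a type and less RNA per cell cannot be told apart. Of the 6 members that reached a mean of 1 FPKM, 1 (Ighm) had groups that did not overlap and lay lower in Gli2CA, where 5.79% of all genes tested did. None lay wholly higher in Gli2CA, where 10.9% of all genes did. The other 3, Ighd, Mzb1 and Ms4a1, were below that level and were not tested. Nothing is read from these shares, since the contrast chose the members.

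The kappa constant gene Igkc stood in another order across the libraries than Ighm. It lies at chromosome 6, 70726435 to 70726966 (plus strand). Its level was 0.600, 291.5 and 82.03 FPKM in NTC 1, 2 and 3 and 9.36, 48.4 and 6.86 FPKM in Gli2CA 1, 2 and 3. NTC 1, which had the most Ighm, had the least Igkc, with 6 reads against 4322 in NTC 2. Within NTC the highest value was 485.5 times the lowest for Igkc and 1.504 times for Ighm. The groups overlapped, with a log2 difference of -1.09 ± 1.74 (SE). It turned to 0.46 without NTC 2, and it was -3.29 without NTC 1 and -4.20 without NTC 1 and NTC 3, the libraries with fewest genes above 0, a pair chosen after seeing the data. The ratio of Ighm to Igkc, both per length, was 1130, 1.55 and 8.21 in NTC 1, 2 and 3 and 11.4, 3.92 and 19.2 in Gli2CA 1, 2 and 3. NTC 2 had the lowest ratio and NTC 1 the highest, so the pair was most unlike within NTC.

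Ighd was near the limit of detection. This gene, next to Ighm on the same strand with 2233 bases between them, had 0, 1 and 18 reads in NTC 1, 2 and 3 and 8, 12 and 4 reads in Gli2CA 1, 2 and 3. Its highest level was 0.596 FPKM, in NTC 3. The groups overlapped. Mature naive B cells carry both IgM and IgD from 1 long transcript, but here Ighm exceeded Ighd by far in each library.

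Jchain was present in 2 NTC libraries. Its level was 0, 11.5 and 9.16 FPKM in NTC 1, 2 and 3, or 0, 597 and 396 reads. In Gli2CA 1, 2 and 3 it was 0.018, 0.141 and 0.042 FPKM, or 1, 7 and 2 reads. NTC 1 lay below the Gli2CA libraries, so the groups overlapped, with a log2 difference of -2.24 ± 1.04 (SE), or -3.40 without NTC 1. Jchain thus shared its place with Igkc in NTC 2 and NTC 3 and not with Ighm in NTC 1.

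**Figure D1:**
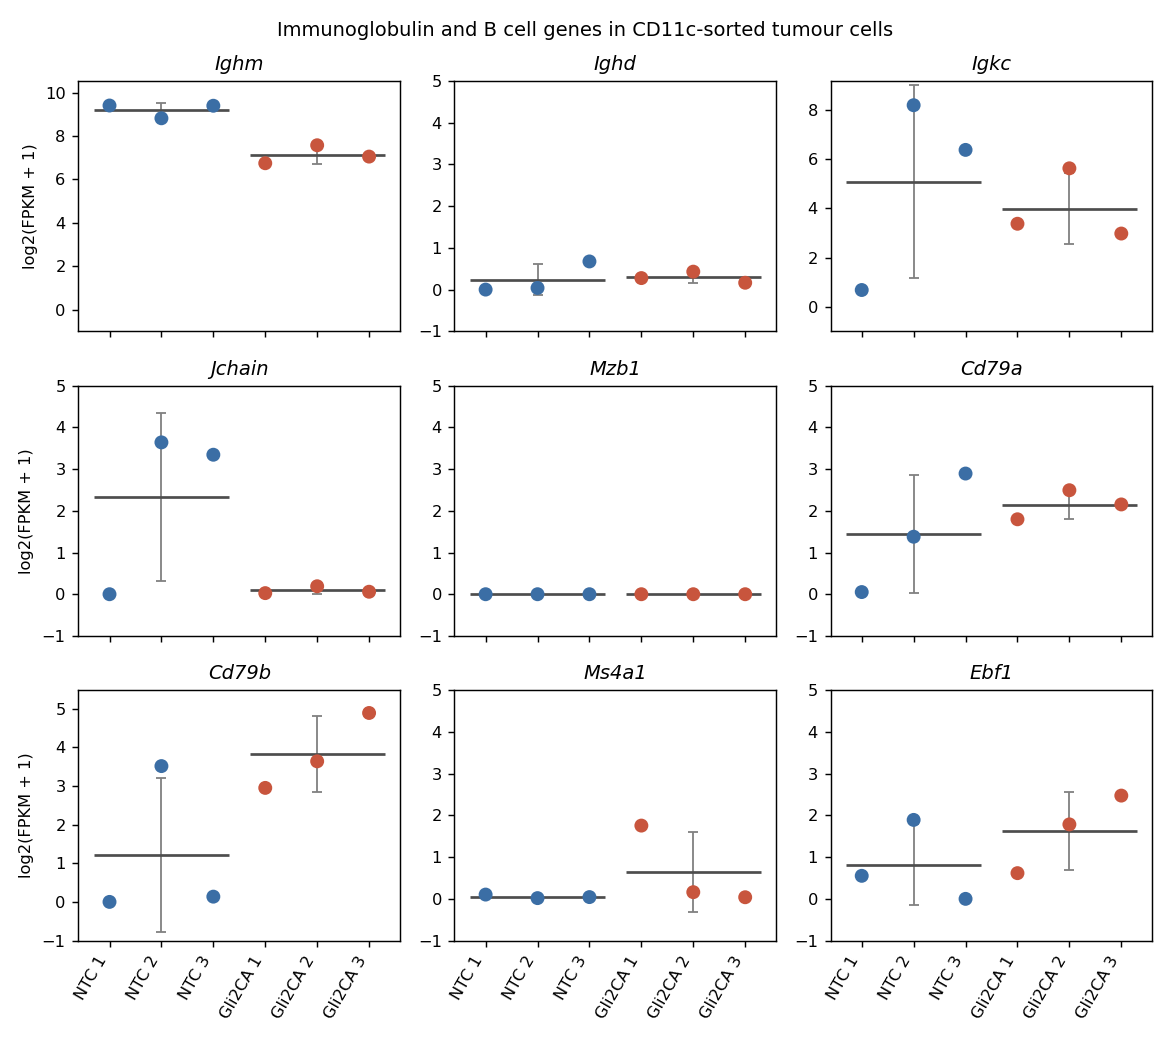
Level of each of the 9 genes by library, as log2(FPKM + 1), with NTC in blue and Gli2CA in red. Horizontal lines are group means and bars are SD (n = 3). Ighm separates the groups, at 451.2 to 678.6 FPKM against 106.5 to 189.9, whereas 7 of the other genes overlap between them and Mzb1 is at 0.

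The genes of the B cell receptor complex stood in another order. Cd79a (chromosome 7, 24897381 to 24902197) had 0.037, 1.60 and 6.43 FPKM in NTC 1, 2 and 3 and 2.47, 4.63 and 3.45 FPKM in Gli2CA 1, 2 and 3. NTC 3 was highest and NTC 1, with 1 read, lowest, while the Gli2CA libraries lay between. Cd79b (chromosome 11, 106311341 to 106314762) had 0, 10.4 and 0.099 FPKM in NTC 1, 2 and 3 and 6.72, 11.4 and 28.6 FPKM in Gli2CA 1, 2 and 3. NTC 2 fell among the Gli2CA libraries, while NTC 1 and NTC 3 had 0 and 3 reads. The log2 differences were 0.71 ± 0.93 for Cd79a and 2.61 ± 1.16 for Cd79b (SE), both with overlapping groups. That of Cd79a was -0.19 after quantile normalization and 1.61 with a pseudocount of 0.1, and it was 0.01 without NTC 1 and 1.43 without NTC 3. That of Cd79b was 4.47 with a pseudocount of 0.1 and 0.31 without NTC 1 and NTC 3. The proteins of these genes work as a pair, yet NTC 3 had 217 reads of Cd79a and 3 of Cd79b.

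Ms4a1 was at trace level outside 1 library. It had 4, 1 and 2 reads in NTC 1, 2 and 3 and 200, 9 and 2 in Gli2CA 1, 2 and 3, where the 200 reads made 2.38 FPKM. The groups overlapped. Ebf1 (chromosome 11, 44617317 to 45008091) had 0.466, 2.71 and 0 FPKM in NTC 1, 2 and 3 and 0.533, 2.45 and 4.56 FPKM in Gli2CA 1, 2 and 3. NTC 2 again lay among the Gli2CA libraries, and NTC 3 had no read. Its log2 difference was 0.81 ± 0.84 (SE), and it became -0.27 without NTC 1 and NTC 3 and 1.85 with a pseudocount of 0.1.

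Mzb1 was listed at 0 in all 6 libraries. At this depth 3 reads would have given 0.160 to 0.248 FPKM, depending on the library. In GENCODE M21, 57.2% of its exonic bases also lie in exons of another gene on the same strand, annotated as SPATA24. The part of that overlap in the 0 was not tested, since the authors' counting is not given in the sources used here. None of the other 8 genes shares exonic bases with another gene in that annotation.

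Across the 9 genes, 3 had the lower mean log2 level in Gli2CA (Ighm, Igkc and Jchain), 5 the higher and 1 no difference. The median log2 difference was 0.05 for the 9 genes and 0.32 for the 8 other than Ighm, beside 0.25 for all genes tested. Ighd, Mzb1 and Ms4a1, which both member medians include, were below the level of testing. The Ighm difference minus the median of the other 8 was -2.41, and it ranged from -3.18 to -1.79 over the alternative settings. The median was -1.59 for the 4 antibody genes and 0.71 for the 5 B lineage genes. After quantile normalization these were -1.94 and 0, so the opposite sign was lost. The antibody median was -0.81 without NTC 2 and -2.64 without NTC 1, and the B lineage median was 0.31 without NTC 1 and NTC 3 and 1.61 with a pseudocount of 0.1. By root-mean-square distance between mean-centred log2 profiles over the 6 libraries, Jchain was the closest other member, at rank 4433 of 12265 genes (distance 1.31). Cd79a came at rank 6572, Ebf1 at 6973, Igkc at 11249 and Cd79b at 11753. The genes closest to Ighm were Pianp, Rad51ap1, Sh2b2, Gm14597 and Zfp865, at distances of 0.30 to 0.34. Rad51ap1, a DNA repair factor, had 28.7, 10.8 and 24.9 FPKM in NTC 1, 2 and 3 and 3.60, 8.39 and 5.98 in Gli2CA 1, 2 and 3. Those closest to Cd79a were Znrd1as, Arfip2, Med13l, Atg5 and Cux1, at distances of 0.19 to 0.24, and Ighm came at rank 9535 from Cd79a.

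Reads on heavy V segments were set beside those of Ighm. In NTC 1, 2 and 3, Ighm had 20327, 20064 and 24900 reads, and all heavy V segments together had 0, 1517 and 3. In Gli2CA 1, 2 and 3, Ighm had 4953, 8035 and 5363 reads, and heavy V segments had 52, 90 and 61. Heavy V reads per 1000 Ighm reads came to 0, 75.6 and 0.12 in the NTC libraries and to 10.5, 11.2 and 11.4 in the Gli2CA libraries. NTC 1 and NTC 3, the libraries with the most Ighm per length, were thus those with almost no heavy V reads, and the Gli2CA libraries lay close together between them and NTC 2. The table held 185 heavy V segments, of which 19 had a read in any library and 0 had one in all 6. V segments are short, some are much alike, and recombined and mutated V regions match the reference less well. How the authors assigned such reads is not given, so V reads are uncertain as to segment and may be undercounted. A heavy V read also does not tell which constant gene its RNA carried. NTC 2 had 487 reads of the constant gene Ighg2b and 187 of Ighg3 as well, and NTC 1 had 776 of Igha. The share of V reads that belongs to Ighm RNA was not tested.

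Ighj1 was the exception among segments. It had 25, 10 and 39 reads in NTC 1, 2 and 3 and 19, 17 and 6 reads in Gli2CA 1, 2 and 3. NTC 1 and NTC 3 were highest, as for Ighm, but NTC 2 lay among the Gli2CA libraries. It lies 7050 bases upstream of Ighm, on the same strand. Ighj4 had 6 reads in NTC 2 and 0 elsewhere, the other heavy J segments had 0, and no D segment had a read in any library.

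In NTC 2 most V reads fell on a few segments. Ighv5-4, printed above, had 1429 reads there, or 94.2% of the heavy V reads of that library, and at most 4 in any other. Igkv12-44 had 1723 reads, or 85.3% of its kappa V reads, with 32 and 2 in Gli2CA 1 and Gli2CA 2 and 0 in the others. Igkv9-120 had 225 reads in NTC 2 alone, and Ighv1-74 had 85 there and 59 in Gli2CA 3. Ighv5-6 and Igkv12-41, the closest relatives of the leading segments, had 0 reads in all 6 libraries. The leading V segments of the Gli2CA libraries were in part the same. Igkv12-44 led the kappa V reads of Gli2CA 1 (32 of 47), and Ighv1-74 led the heavy V reads of Gli2CA 3 (59 of 61). Ighv1-50 led the heavy V reads of Gli2CA 1, with 50 reads there and 0 in the other libraries. Iglv1, a lambda segment, had 2, 34 and 77 reads in Gli2CA 1, 2 and 3 and 0 in each NTC library, and Igkv17-121 had 13, 48 and 0.

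The kappa chain differed among libraries as well. All kappa V segments together had 2, 2019 and 4 reads in NTC 1, 2 and 3 and 47, 134 and 4 reads in Gli2CA 1, 2 and 3. NTC 3 had 1011 reads of Igkc with 4 of any kappa V segment, while NTC 2 had 4322 with 2019. Kappa J segments had reads in NTC 2 (43) and Gli2CA 2 (7) and 0 in the other 4 libraries.

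**Figure D2:**
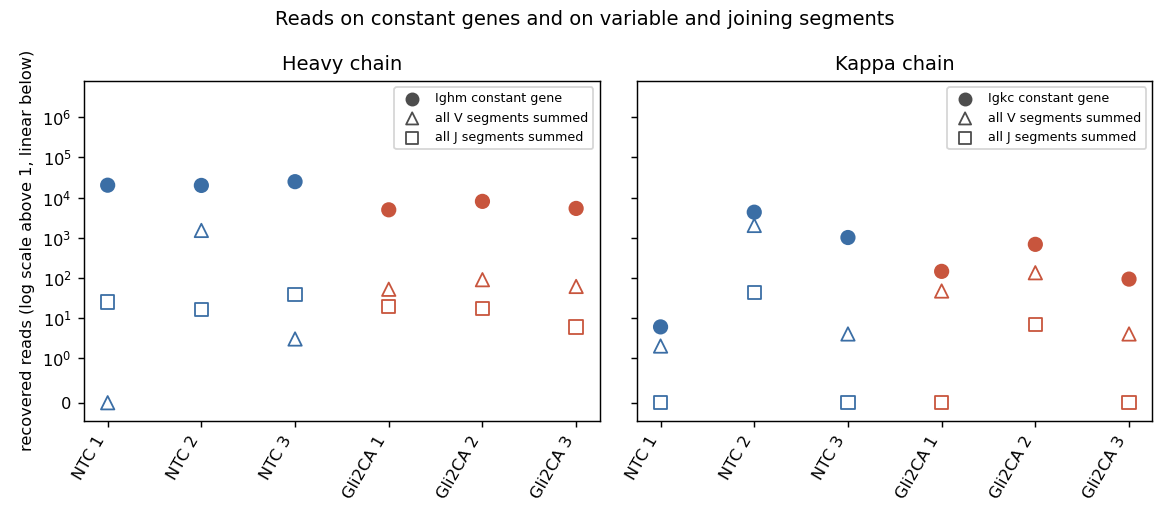
Recovered reads by library on the constant gene (filled circles), on all V segments summed (triangles) and on all J segments summed (squares), for the heavy chain on the left and the kappa chain on the right. NTC is blue and Gli2CA red, and the axis is logarithmic above 1 and linear below. Heavy V reads number 1517 in NTC 2 but 0 and 3 in NTC 1 and NTC 3, which have at least as many Ighm reads.

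Other constant genes differed by library rather than by group. Of 9 further heavy and lambda constant genes, 3 reached a mean of 1 FPKM, and 0 of these 3 passed in limma (adjusted p of at least 0.68). Igha, the constant gene of IgA, had 776 reads (22.7 FPKM) in NTC 1 and at most 1 in any other library. Ighg2b and Ighg3, of the IgG classes, had 487 and 187 reads in NTC 2, or 9.49 and 3.84 FPKM. Elsewhere Ighg2b had at most 10 reads and Ighg3 had 0. Iglc3, a lambda constant gene, had 80 reads in NTC 1 and 79 in Gli2CA 3. Ighe, of IgE, was listed at 0 throughout.

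The antibody-secreting programme was described by 13 plasma cell genes, of which 11 were tested. None passed with limma on log2(FPKM + 1) (0% of all 12266 genes did, with 1304 at an unadjusted p under 0.05), and 1 of the 11, Sdc1, had an unadjusted p under 0.05. That count was 3 without NTC 2 and 0 without NTC 1, NTC 3 or Gli2CA 1. Their median log2 difference over all 13 was -0.08. Tnfrsf17, the plasma cell survival receptor BCMA, had 2.29 FPKM (52 reads) in NTC 2 and was listed at 0 in the others. Derl3, of the disposal of misfolded proteins, had 6.80 FPKM in NTC 2 and 8.71 in Gli2CA 2 and at most 1 read elsewhere. Prdm1, the transcription factor of plasma cell differentiation, had 0.017, 14.05 and 0.041 FPKM in NTC 1, 2 and 3 and 10.1, 8.28 and 1.90 in Gli2CA 1, 2 and 3. Sdc1, which encodes CD138, had 0.073, 7.15 and 0.059 FPKM in NTC and 28.1, 6.20 and 15.8 in Gli2CA (limma adjusted p = 0.401). In NTC 2 the reads of Tnfrsf17, Jchain, Ighg2b, Ighg3 and Ighv5-4 thus stood together, though Jchain also had 396 reads in NTC 3. NTC 2 also had more genes at 1 FPKM or more, 11547, than NTC 1 (7827) and NTC 3 (8534). Xbp1, the factor of the secretory programme, which many secreting cells use, was at 193.9 to 385.8 FPKM in every library.

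**Figure D3:**
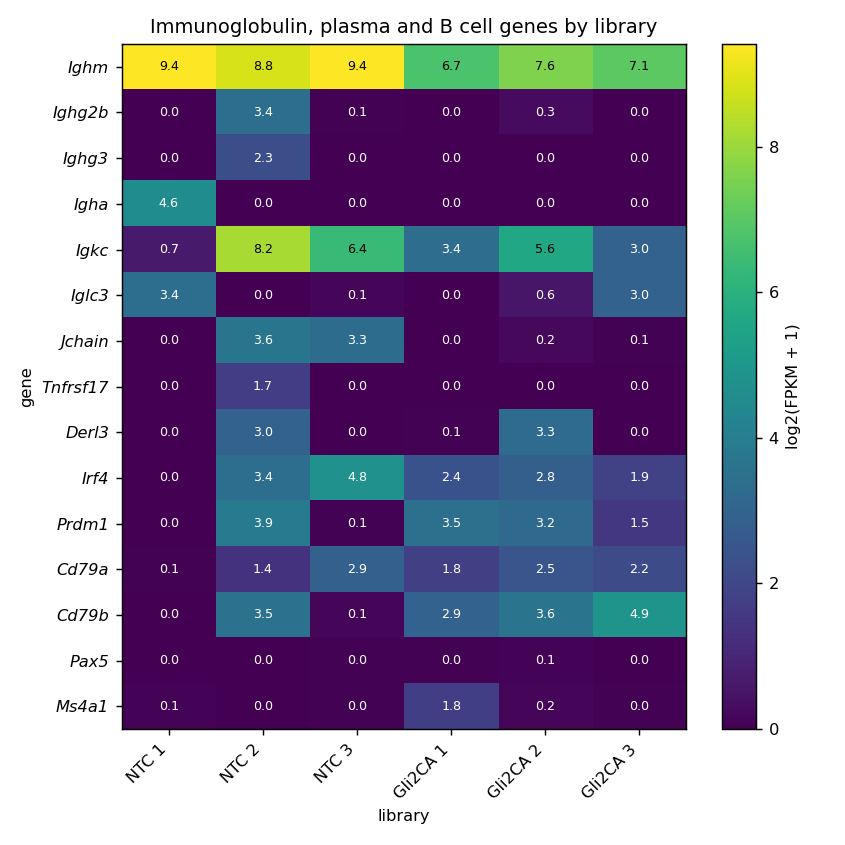
Level of 15 antibody, plasma cell and B cell genes in each library, with colour and printed numbers giving log2(FPKM + 1), the genes being chosen after their values were seen. Ighm is the brightest row in every library, Igha is bright in NTC 1 alone, and Ighg2b, Ighg3 and Tnfrsf17 in NTC 2 alone.

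Pax5, the transcription factor that maintains B cell identity, was at or near 0, with at most 0.059 FPKM (2 reads, Gli2CA 2). Of 20 B cell genes outside the 9 members, 10 reached a mean of 1 FPKM. The median log2 difference over all 20, tested or not, was 0.09, with 14 higher and 6 lower in Gli2CA. Among the 10 tested the median was -0.035, with 5 higher and 5 lower. Of all 12266 genes tested, 7323 were higher and 4943 lower. None of the 10 passed with limma, and none had an unadjusted p under 0.05. Without NTC 3, 3 had an unadjusted p under 0.05 (1 higher and 2 lower), without NTC 2, 1 did, and with 1 library left out the median of those tested ran from -0.59 to 0.33. Siglecg and H2-Ob had groups that did not overlap and lay lower in Gli2CA. Siglecg, an inhibitory lectin, had 34.1 ± 8.58 FPKM in NTC and 15.9 ± 5.97 in Gli2CA (SD, n = 3 each, limma adjusted p = 0.506). H2-Ob, a regulator of MHC class II loading that dendritic cells also express, had 84.4 ± 22.1 against 46.8 ± 7.58 FPKM (limma adjusted p = 0.477). Cxcr5, which guides cells to follicles, had 30.3, 6.78 and 0.048 FPKM in NTC 1, 2 and 3 and at most 0.084 in Gli2CA. Cd22, an inhibitory co-receptor, followed Cd79a in order within NTC, with 0, 2.11 and 23.1 FPKM in NTC 1, 2 and 3, and had 5.19 to 15.2 FPKM in Gli2CA. Tnfrsf13c, the BAFF receptor, had 0, 11.9 and 0 FPKM in NTC 1, 2 and 3 and 6.30 to 13.1 in Gli2CA, with NTC 1 and NTC 3 lowest as for Cd79b.

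Signalling genes used below the B cell receptor, which myeloid cells share, were present at higher levels. Of 13 such genes all were tested and none passed with limma, while 4 had an unadjusted p under 0.05 (1304 of all 12266 genes did). The count of 4 became 0 without Gli2CA 2 and 2 without Gli2CA 1 or Gli2CA 3. Cd72 and Lyn lay higher in Gli2CA and Dapp1 and Ptpn6 lower. Cd72, an inhibitory co-receptor, had 185.2 ± 30.5 FPKM in NTC and 333.4 ± 73.8 in Gli2CA (SD, n = 3 each, limma adjusted p = 0.313). Dapp1, an adaptor of lipid signalling, had 154.6 ± 12.2 against 92.03 ± 8.92 FPKM (limma adjusted p = 0.374). Blnk, the adaptor next to the receptor, had 0.078 to 2.72 FPKM in NTC and 4.93 to 7.59 in Gli2CA without overlap (limma adjusted p = 0.509).

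Genes of B cell precursors were low, and those of germinal centres ran from 0 to 50.4 FPKM. Of 6 precursor genes none reached a mean of 1 FPKM, and Igll1, Rag1 and Rag2 were listed at 0 throughout. Vpreb1, of the surrogate light chain, had 30, 38 and 16 reads in Gli2CA 1, 2 and 3 and 0 in each NTC library. Of 7 germinal centre genes, Mef2b and Rgs13 were listed at 0 throughout. S1pr2, a sphingosine-1-phosphate receptor that macrophages also use, had 0.073, 1.91 and 0.039 FPKM in NTC and 47.8, 35.1 and 35.9 in Gli2CA (log2 difference 4.76 ± 0.79 SE, limma adjusted p = 0.178). Gcsam, a germinal centre signalling adaptor, had 50.4, 47.2 and 39.8 FPKM in NTC and 19.05, 10.6 and 13.6 in Gli2CA (limma adjusted p = 0.267). Both had groups that did not overlap, in opposite directions, and neither passed the test.

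Markers of other cells that can carry Ighm RNA or B lineage RNA were set beside Ighm. Of the 10 T cell genes, 9 had the lower mean in Gli2CA (4943 of all 12266 genes tested did). The list's median difference was -0.48 on the log2 scale. Their summed level was 1420 to 2815 FPKM in NTC and 1056 to 1571 in Gli2CA, with overlap, and none was at 0 in all libraries. Trac, the T cell receptor alpha constant gene, had 413.5, 728.9 and 516.4 FPKM in NTC and 188.6, 238.8 and 265.5 in Gli2CA (limma adjusted p = 0.195). It ranked 165 of 12265 in likeness to Ighm, above every other member, although NTC 2 was highest for Trac and the lowest NTC library for Ighm. The T cell genes Cd3e, Cd3d and Cd3g ranked further off, at 1480, 1806 and 1824. The ratio of Ighm to Trac was 1.64, 0.619 and 1.30 in NTC 1, 2 and 3 and 0.565, 0.795 and 0.497 in Gli2CA 1, 2 and 3. This ratio overlapped between the groups, through NTC 2. The ratio of Ighm to Ptprc, the gene of CD45, did not overlap, at 1.345 to 4.892 in NTC and 0.3427 to 0.6187 in Gli2CA. Ptprc itself had 138.7, 335.5 and 222.2 FPKM in NTC 1, 2 and 3 and 310.9, 306.9 and 302.1 in Gli2CA 1, 2 and 3. The ratio was thus raised in NTC 1 and NTC 3 by lower Ptprc as well, and Ighm alone already separated the groups. None of the 10 T cell genes passed, and 2 (Trac and Trbc2) had an unadjusted p under 0.05, both lower. Of all 12266 genes tested, 1304 had such a p, 345 of them lower. The T cell count was 6, all lower in Gli2CA, without NTC 1 and was 1 without NTC 3, Gli2CA 1 or Gli2CA 2. The list's median was -0.86 without NTC 1 and -0.21 without NTC 2. The part of T cell RNA in the Ighm difference was not tested.

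Plasmacytoid dendritic cells transcribe some B lineage genes. Of 14 markers 12 were tested and none passed with limma, with a median log2 difference of 0.16 over all 14. With 1 library left out, the median of those tested ran from -0.38 (without NTC 3) to 0.38 (without NTC 1). Their summed level was 384.0 to 706.6 FPKM in NTC and 630.6 to 806.5 in Gli2CA. Bst2 made up most of it, with 245.6 to 577.3 FPKM in NTC and 456.9 to 657.9 in Gli2CA. Siglech, their defining lectin, had 27.7, 2.25 and 0.268 FPKM in NTC and 2.95, 0.703 and 3.51 in Gli2CA. It was highest in NTC 1, where Cd79a, Cd79b and Jchain had at most 1 read each. The smallest p in that list was that of Tlr7, an RNA sensor, with 0.026, 0.248 and 0.021 FPKM in NTC and 3.68, 5.92 and 3.76 in Gli2CA (limma adjusted p = 0.266). Of the 10 conventional dendritic cell genes, 9 had the lower mean in Gli2CA, as did 4943 of all 12266 genes tested. The list's summed level was 54570 to 68570 FPKM in NTC and 44280 to 53200 in Gli2CA, without overlap. That sum was mostly H2-Ab1 (42700 of 68570 FPKM in NTC 1) and Cd74 (24000 there). None of the 10 genes passed with limma, while 6 had an unadjusted p under 0.05, all lower in Gli2CA, or 3 without Gli2CA 1. Of all 12266 genes tested, 1304 had such a p, 345 of them lower in Gli2CA. Xcr1, the chemokine receptor of cross-presenting dendritic cells, had 33.2, 51.4 and 33.2 FPKM in NTC and 5.45, 7.02 and 11.4 in Gli2CA (limma adjusted p = 0.226). Its log2 difference of -2.19 was close in size to that of Ighm. Among 10 monocyte and macrophage genes none passed, and Ly6c2, a marker of inflammatory monocytes, stood higher in Gli2CA, at 418.9 to 774.9 FPKM against 126.5 to 191.3 (limma adjusted p = 0.178). The part of these cell types in the Ighm difference was not tested.

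**Figure D4:**
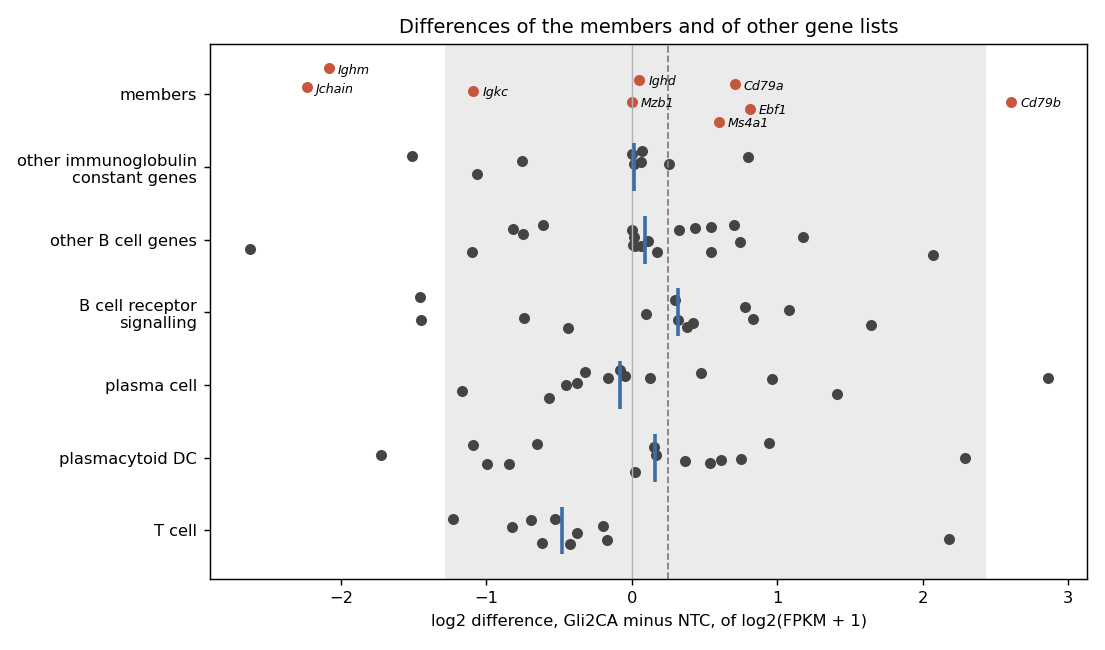
Log2 difference, Gli2CA minus NTC, of each member (red) and of the genes of 6 lists (black), with the median of each list over all its genes as a blue bar. The grey band spans the 5th to 95th percentile of all genes tested (-1.28 to 2.43) and the dashed line is their median (0.25). Ighm and Jchain lie left of the band and Cd79b right of it, while the other B cell genes centre near 0.09.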

How the data were processed

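Per the labels' protocols, digested tumours were sorted by FACS for CD11c, and poly(A) RNA was made into NEBNext Ultra II libraries with random hexamers. The deposited table gives FPKM values as the authors computed them, 1 column per library, with 0 columns of other samples. Which aligner, counting tool, strand setting, build and annotation they used is not given in any source used here. Libraries are numbered as in the sample titles. Symbols came from a table that named 54409 of 54532 IDs, and lengths and coordinates from GENCODE M21 (GRCm38), which held 54495. FPKM times mean transcript length gave whole reads within 0.05 for 97.1 to 98.2% of values under 30 reads. Floors of 3 reads and read counts cover counting error only.

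Groups were compared on log2(FPKM + 1) by limma 3.58.1 (R 4.3.3), with a variance trend, group as the only term, two-sided p-values and Benjamini-Hochberg adjustment over the 12266 genes that averaged 1 FPKM or more, at a threshold of 0.05. The log2(FPKM + 1) scale understates changes of low genes. The fit was tested on simulated data with a large change and a spread smaller than that of most members. That setting does not tell how often real changes would be missed here. With 3 against 3, an exact permutation test cannot give p below 0.1. The members and the 13 lists (130 entries) were chosen with earlier results of these data known. All members were named, and of each list its defining genes, those listed at 0 and up to 4 with the smallest p. Also named were the leading V and J segments and the 5 genes closest to Ighm and to Cd79a. A few others (Igkv17-121, Cd22, Tnfrsf13c, Cxcr5, Derl3 and Vpreb1 among them) were chosen after their values were seen. The lists for NK cells, neutrophils, and monocytes and macrophages had 5, 4 and 10 tested genes, of which 0 passed, and 2 melanocytic genes were tested, of which 0 passed. Tables were handled in Python 3.11.15 (pandas 2.3.3, numpy 2.4.6) and drawn with matplotlib 3.10.9. Alternatives were another pseudocount, other filters, 3 other scalings, a replicate block and leaving out libraries. Some genes that the list counts include are not reported here by name.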

Additional observations from a re-analysis of the deposited data

How the results depend on the processing

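Ighm had the lower level in Gli2CA in all 14 alternatives run, with a log2 difference of -2.31 to -1.89 when 1 library was left out. Its sign could not turn on leaving out libraries, since the groups did not overlap. The other filters and the replicate block leave the difference of any member unchanged by construction. Leaving out NTC 1 and NTC 3 together, a choice made after seeing the data that leaves 1 NTC library assumed to vary like the Gli2CA group, gave -1.70. The difference of Ighm minus the median of the other 8 members was -2.41, and it became -3.18 with a pseudocount of 0.1, -1.79 after quantile normalization and -1.82 without NTC 1 and NTC 3. It was -2.80 (without NTC 2) to -1.95 (without Gli2CA 1) when 1 library was left out. The causes were not tested. The count of genes passing, 0, became 16 after quantile normalization, which moved the median difference of all genes from 0.25 to 0.02, and 0 to 6 on leaving out 1 library, with 6 without NTC 2. Counts of 0 in the lists for other B cell, plasma cell, plasmacytoid and receptor signalling genes stayed 0 in all 14 alternatives. Of the other members, Jchain was lower in Gli2CA in all 14 and Igkc in 13, Cd79b was higher in all 14, and Cd79a, Ebf1 and Ms4a1 each in 13. Libraries with the same title number did not deviate together (r = -0.042, -0.002 and -0.007 across genes). The deposited columns number the NTC libraries otherwise, and such correlations cannot exclude a pairing of the samples. With the replicate number as a block, 0 genes passed, while the Ighm difference of -2.08 could not change. Ighd and Mzb1 rest on few or no reads, as does Ms4a1 outside Gli2CA 1.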
